A study of Mus musculus with 6 samples.

Results

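Skeletal muscle lineage genes were examined in mouse embryonic fibroblasts (MEFs), the mixed stromal cells that grow out of a minced mid-gestation embryo. They were the 10 genes Myod1, Myog, Myf5, Des, Acta1, Actc1, Mylpf, Tnnt2, Ttn and Myh3, and all 19 probe sets that carry 1 of these symbols and no other were taken, of 45037 probe sets for 18193 genes in all. A probe set is a group of short array probes that report 1 transcript or a few. The rule that takes the probe sets goes by symbol and uses no measured value, while the 10 genes were listed with earlier results of these data known.

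The study set 3 Zmpste24-/- cultures beside 3 wild-type (Zmpste24+/+) ones on Affymetrix Mouse Genome 430 2.0 arrays. All cultures carry the strain label C57BL/6, came from embryos of embryonic stage E13.5, were plated in medium with fetal calf serum and no other agent, and were collected at passage 3. Zmpste24 encodes the protease that trims prelamin A into lamin A, a protein of the mesh under the nuclear envelope. The labels number the cultures 1 to 3 within each genotype and speak of pairs, but do not say which embryos share a litter or which part of the gene is deleted.

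In the embryo, Myf5 and Myod1 commit cells to the muscle lineage, and Myog drives committed myoblasts to leave the cell cycle and fuse. The fused fibres then fill with sarcomeres, in which thin filaments of actin and troponin slide along thick filaments of myosin, with titin as the spring between them. Serum-fed fibroblasts keep this programme largely silent, although several actin and cytoskeletal genes of muscle also answer to serum response factor (SRF), which acts in many cell types.

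Windows of 250 bases before the annotated start were taken from RefSeq (GRCm38.p6), and 9 of the 10 genes had one. Both actin genes hold a CArG box, the motif that SRF binds, in that window, and they are shown because both varied with the culture number in the arrays. The CArG box is in capitals in each.
Acta1, chr8:123894776-123895025, minus strand: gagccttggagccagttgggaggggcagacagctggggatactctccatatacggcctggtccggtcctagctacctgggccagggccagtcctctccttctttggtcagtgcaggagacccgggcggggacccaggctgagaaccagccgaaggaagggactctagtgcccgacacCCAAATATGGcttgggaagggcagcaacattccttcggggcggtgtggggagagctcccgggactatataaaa
Actc1, chr2:114052876-114053125, minus strand: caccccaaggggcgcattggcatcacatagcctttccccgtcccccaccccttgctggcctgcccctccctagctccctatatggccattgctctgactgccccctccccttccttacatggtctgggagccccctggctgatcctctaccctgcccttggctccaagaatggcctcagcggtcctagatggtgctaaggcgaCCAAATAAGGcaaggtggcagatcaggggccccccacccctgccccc

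The box lies 73 to 64 bases before the start of Acta1 and 47 to 38 bases before that of Actc1. The other member windows hold no CArG box, those of Des and Tnnt2 included, although both genes also varied with the culture number. Among all 32851 promoter windows of the same length, 1.47% hold a CArG box. A match is a string of letters and was not tested as a binding site.

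Windows of Des and Myog are shown for the E-box, the motif bound by Myod1 and its relatives, which is written CANNTG and reads the same way on both strands as a pattern. The E-boxes are in capitals.
Des, chr1:75360042-75360291, plus strand: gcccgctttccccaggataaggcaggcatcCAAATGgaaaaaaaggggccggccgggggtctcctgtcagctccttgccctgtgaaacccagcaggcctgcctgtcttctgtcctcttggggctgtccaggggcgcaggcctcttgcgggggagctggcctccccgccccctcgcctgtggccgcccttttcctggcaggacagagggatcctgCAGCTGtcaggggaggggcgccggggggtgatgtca
Myog, chr1:134289754-134290003, plus strand: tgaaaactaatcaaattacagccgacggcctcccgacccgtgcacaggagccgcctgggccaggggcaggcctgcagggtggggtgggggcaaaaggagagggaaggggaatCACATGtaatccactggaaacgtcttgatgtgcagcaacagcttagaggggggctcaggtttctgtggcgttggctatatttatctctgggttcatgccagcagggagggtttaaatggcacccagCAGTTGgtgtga

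An E-box occurred in the windows of 7 members (Des, Myog, Tnnt2, Ttn, Mylpf, Acta1 and Myh3), and in 66.2% of all windows. A TATA box, searched as TATAAA on both strands, was found in the windows of Acta1 and Myh3 and in 12.4% of all windows. A MEF2 site, named for the partner factors of Myod1, was found in that of Ttn and in 2.92% of all windows.

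The arrays as a whole bear on every value below. Zmpste24 itself averaged 258 ± 95.7 signal units in Zmpste24-/- cultures and 2714 ± 989 in wild type (n = 3 each, SD), 9.50% of the wild-type level. The arrays numbered 1 stood apart in both genotypes: they correlated at r = 0.985 with each other across probe sets and at 0.927 to 0.934 with the other 4, which correlated at 0.980 to 0.987 among themselves. Xist, the RNA of the inactive X chromosome, was 4766 to 6669 in the Zmpste24-/- cultures and 5324, 69.3 and 43.7 in wild-type cultures 1, 2 and 3, and the Y-linked Eif2s3y had the opposite pattern, at 10.4 to 15.7 in Zmpste24-/- and 1.5, 531 and 1341 in wild type. Genotype and embryo sex therefore cannot be told apart in numbers 2 and 3. The Gapdh controls for RNA integrity had a 3′ over 5′ ratio of 0.753 to 0.772 on all arrays, and the actin controls 1.17 to 1.36 in Zmpste24-/- and 1.21 to 1.24 in wild type, with the highest value in Zmpste24-/- culture 1.

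The defining muscle regulators were at the dim end of the arrays in both genotypes. A probe set was tested where its mean over the 6 arrays lay above the dimmest 40% of the array, a signal of 39.4, and no probe set of Myod1, Myog, Myf5, Ttn or Myh3 reached it. The 6 that did belong to Acta1, Des, Actc1, Mylpf and Tnnt2. The label of a muscle lineage thus rested, in these cells, on genes of the contractile apparatus and of intermediate filaments, while the factors that define the lineage stayed under the limit.

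**Figure D1:**
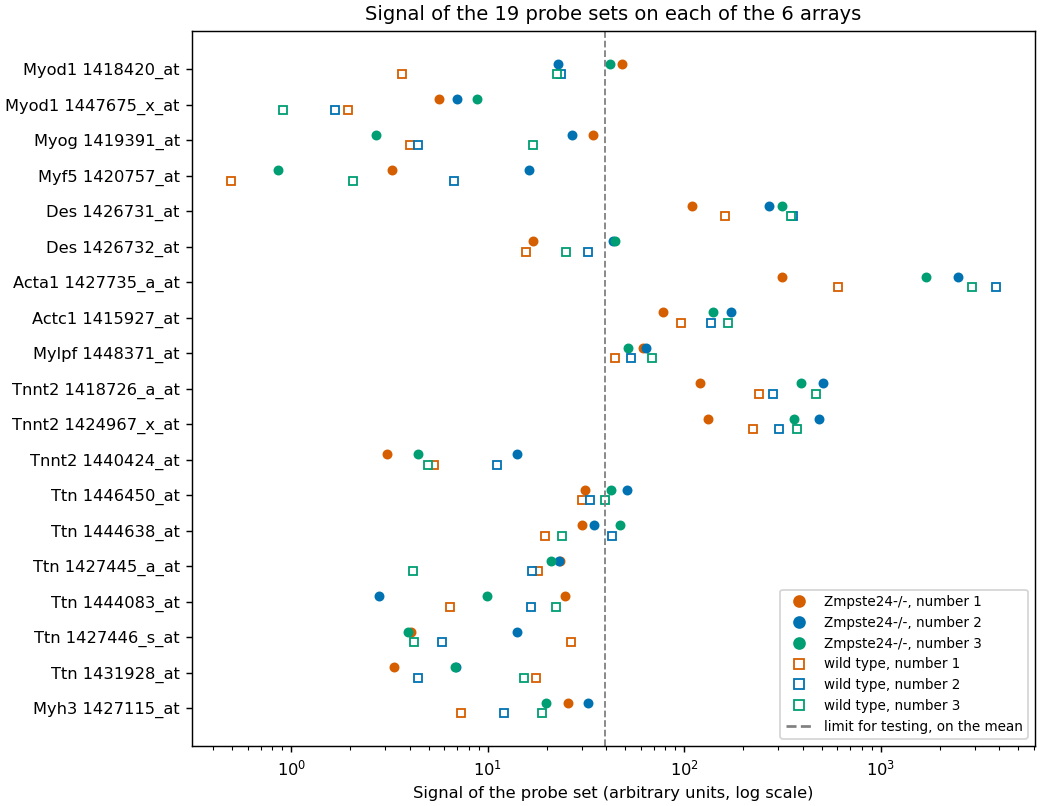
Signal of each of the 19 probe sets (log axis, arbitrary units) on the 3 Zmpste24-/- arrays (filled circles) and the 3 wild-type arrays (open squares), coloured by culture number. The dashed line is the limit of 39.4 on the mean over arrays. The means of Myod1, Myog, Myf5, Ttn and Myh3 lie left of it, and every array of Acta1 lies right of it, with both number 1 arrays apart from the other 4.

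Myod1, the master regulator that can turn fibroblasts into myoblasts, had 48.2, 22.6 and 41.7 signal units in Zmpste24-/- cultures 1, 2 and 3, against 3.64, 23.7 and 22.4 in wild type. The ranges overlap, and wild-type culture 1 is the low array. Its other probe set had 5.62, 6.97 and 8.85 in Zmpste24-/- and 1.93, 1.67 and 0.90 in wild type, which do not overlap. Myog, the factor of terminal differentiation, had 34.1, 26.7 and 2.71 in Zmpste24-/- and 4.03, 4.39 and 17.1 in wild type, with the ranges overlapping. Myf5, the earliest of the family to be switched on in the embryo, had 3.27, 16.2 and 0.86 in Zmpste24-/- and 0.49, 6.76 and 2.07 in wild type, and it overlapped too.

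Myh3, the myosin heavy chain of embryonic muscle, had 25.4, 32.5 and 19.8 in Zmpste24-/- and 7.31, 12.1 and 18.9 in wild type. Its groups do not overlap, though the Zmpste24-/- array of number 3 exceeds its wild-type partner by 1.05-fold. Ttn, which encodes titin, has 6 probe sets, with means over the 6 arrays from 9.04 to 37.9. The brightest of them, just under the limit, had 31.2, 51.1 and 42.4 in Zmpste24-/- and 30.2, 33.0 and 39.4 in wild type. Another did not overlap, at 23.2, 23.1 and 20.9 in Zmpste24-/- and 18.1, 16.9 and 4.18 in wild type. The other 4 Ttn probe sets overlapped.

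In all, 3 of the 19 probe sets had all Zmpste24-/- arrays above all wild-type arrays, and 0 had them all below. Over all 45037 probe sets the shares were 2.76% and 4.31%. Of the 13 probe sets under the limit, 10 had the higher mean in Zmpste24-/-, within array values of 0.49 to 51.1. The matching share of all probe sets under the limit was not computed, so the count cannot be read as a trend. Several of the 13 belong to the same gene (Ttn or Myod1), and the dim Tnnt2 probe set counts as higher at 7.20 against 7.14. When the limit was dropped, limma called none of the 13 between genotypes after adjustment, and the smallest unadjusted p was 0.0133. Differences at this end of the scale also shrink or grow with the constant added before the logarithm, as given in the closing section.

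Among the bright members, Acta1 was lower in Zmpste24-/- than in wild type in every same-numbered pair, by a similar factor each time. Acta1 encodes skeletal muscle alpha-actin and has a single probe set. It had 314, 2479 and 1691 signal units in Zmpste24-/- cultures 1, 2 and 3, against 605, 3871 and 2903 in wild type. Both arrays of number 1 are far below the other 4, and the genotype ranges overlap. The group means were 1494 ± 1096 in Zmpste24-/- and 2460 ± 1677 in wild type (SD, n = 3 each).

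Within pairs 1, 2 and 3, Acta1 in Zmpste24-/- was 0.518, 0.640 and 0.582 of wild type. On the scale of log2(signal + 16), which understates the change of dim genes, the difference was -0.78 (SE 0.95) without a block, and the limma adjusted p was 0.9999. With the culture number as a replicate block the difference had an SE of 0.085 and an adjusted p of 0.0672, the 7th smallest p of 27022 probe sets. It did not pass the threshold of 0.05 in either fit. In the cultures numbered 2 and 3 alone, where sex differs with genotype, it was -0.71 (adjusted p = 0.459), and in pair 1, where it does not, -0.91. Without Zmpste24-/- culture 1 the unpaired difference became 0.11, and without wild-type culture 1 it became -1.59.

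Des was also lower in Zmpste24-/- in each pair, by less. Des encodes desmin, the intermediate filament that ties sarcomeres to one another and to the cell membrane. Its brighter probe set had 110, 270 and 312 in Zmpste24-/- and 161, 356 and 348 in wild type, so that number 1 is again low in both genotypes and the ranges overlap. The ratios of Zmpste24-/- to wild type were 0.682, 0.758 and 0.897, and the log2 difference was -0.34 (SE 0.46, limma adjusted p = 0.9999), or 0.533 with the replicate block. Without Zmpste24-/- culture 1 it was 0.09. Its dim probe set was not tested and had the higher mean in Zmpste24-/-, with 17.0, 43.6 and 44.3 in Zmpste24-/- and 15.6, 32.4 and 25.0 in wild type, so the Des probe sets disagree in direction.

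**Figure D2:**
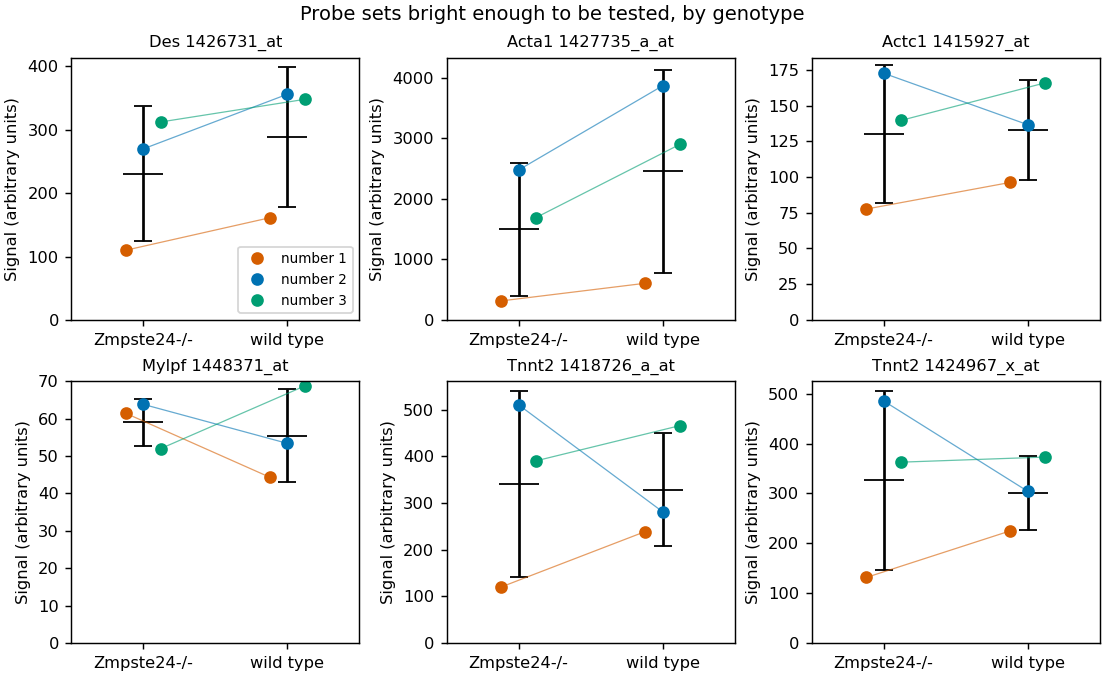
Signal (arbitrary units, linear axis from 0) of the 6 tested probe sets in Zmpste24-/- (left) and wild type (right), coloured by culture number with same-numbered cultures joined; black bars are mean ± SD (n = 3). The Acta1 and Des lines all slope up towards wild type, and those of the other 4 probe sets do not share a direction.

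The remaining bright members showed no common direction. Actc1, cardiac alpha-actin and also the main sarcomeric actin of early skeletal muscle, had 77.6, 172.8 and 139.7 in Zmpste24-/- and 96.3, 136.7 and 166.0 in wild type. The groups overlap almost entirely, and the log2 difference was -0.06 (SE 0.33). Mylpf, the regulatory light chain of fast skeletal myosin, had 61.4, 63.8 and 52.0 in Zmpste24-/- and 44.3, 53.4 and 68.7 in wild type. It was the flattest of the tested members over the 6 arrays, and its log2 difference was 0.08 (SE 0.22).

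Tnnt2 encodes cardiac troponin T, which embryonic skeletal muscle also makes for a time. Its brightest probe set had 120, 511 and 391 in Zmpste24-/- and 239, 281 and 466 in wild type, with pair ratios of 0.503, 1.82 and 0.838. A further bright probe set, whose suffix (x_at) marks probes that may bind other transcripts, had 131, 486 and 363 in Zmpste24-/- and 225, 305 and 373 in wild type, with the same order of arrays. Their log2 differences were -0.11 (SE 0.53) and -0.03 (SE 0.47). The direction changed from pair to pair for Tnnt2: Zmpste24-/- was lower in number 1, higher in number 2 and lower again in number 3. The third Tnnt2 probe set was dim, at 3.08 to 14.1 in Zmpste24-/- and 4.93 to 11.1 in wild type.

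No tested member was called between genotypes: 0 of 6 passed limma's adjusted p of 0.05 without a block, and none had an unadjusted p under 0.05. Of all 27022 tested probe sets 0.0% passed, and 349 had an unadjusted p under 0.05. Zmpste24 itself, at 9.50% of its wild-type level, was thus not called without a block either. A missing call in that fit therefore says little about the members. With the replicate block 0 of 6 passed against 0.0185% of all, and Acta1 and Des had an unadjusted p under 0.05, as did 8.99% of all probe sets. The direction was the same in all 3 pairs for 2 of the 6, Acta1 and Des, both lower in Zmpste24-/-, against 31.9% of all tested probe sets in either direction. Over the 5 genes by their brightest probe set the median log2 difference was -0.11, where that of all tested probe sets was -0.0048. In whole-culture RNA, fewer cells that make a transcript and less of it per cell cannot be told apart.

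**Figure D3:**
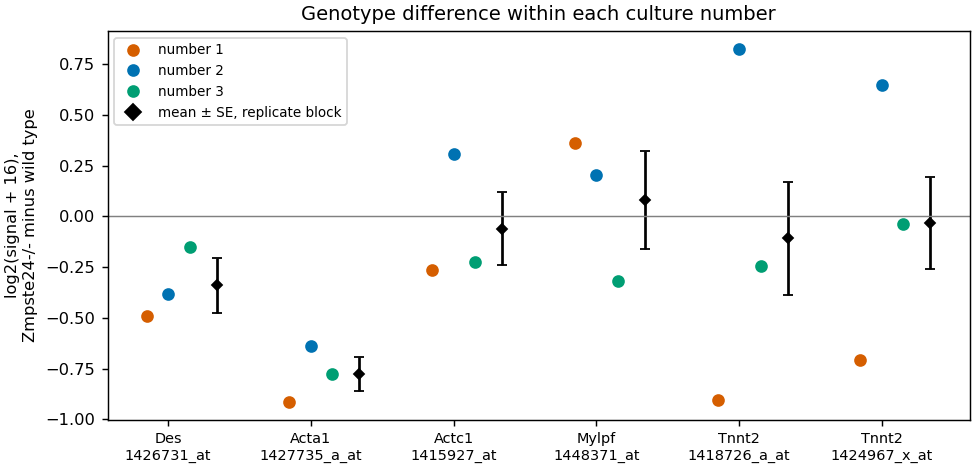
Difference in log2(signal + 16), Zmpste24-/- minus wild type, within culture numbers 1, 2 and 3 (coloured points) for the 6 tested probe sets; the black diamond is their mean ± SE from limma with the replicate block. The Acta1 points lie between -0.91 and -0.64, Des lies below 0 in all 3 numbers, and the others fall on both sides of 0.

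More members passed the test of culture number than that of genotype. In limma's F test of the number, with genotype in the model, 5 of the 6 tested probe sets passed the adjusted threshold (Acta1, Des, Actc1 and both of Tnnt2), and each was lowest in number 1. The background is broad, since 41.6% of all tested probe sets passed, and 19.0% passed with their lowest level in number 1. For the same 5 probe sets both number 1 arrays lay below the other 4 without overlap, against 27.2% of all tested probe sets.

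Acta1 differed most. Its signal in numbers 2 and 3 averaged 6.65 times that of number 1 in Zmpste24-/- and 5.59 times that of number 1 in wild type. The log2 differences from number 1 were 2.78 for number 2 and 2.30 for number 3 (SE 0.10, adjusted p = 7.4e-06), and the mean of both lies at the 99.8th percentile of all tested probe sets. Des differed by 1.13 and 1.21 (SE 0.16, adjusted p = 0.000948), with numbers 2 and 3 at 2.65 times number 1 in Zmpste24-/- and 2.18 times in wild type.

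Tnnt2 differed by 1.09 and 1.25 (SE 0.34, adjusted p = 0.0334), and by 1.09 and 1.03 in the probe set with possible cross-binding (adjusted p = 0.0223). For Tnnt2 the ratio of numbers 2 and 3 to number 1 was 3.75 in Zmpste24-/- and 1.56 in wild type, and a difference between those ratios was not tested. Actc1 differed by 0.73 and 0.72 (SE 0.22, adjusted p = 0.0414). Mylpf differed by 0.12 and 0.15 (SE 0.30, adjusted p = 0.90) and was not called. Acta1 and Des were called by number under all 14 alternatives, whereas the count of members called dropped to 2 with no limit on dim probe sets, with no intensity trend, without Zmpste24-/- culture 1, without Zmpste24-/- culture 3 or without wild-type culture 3.

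**Figure D4:**
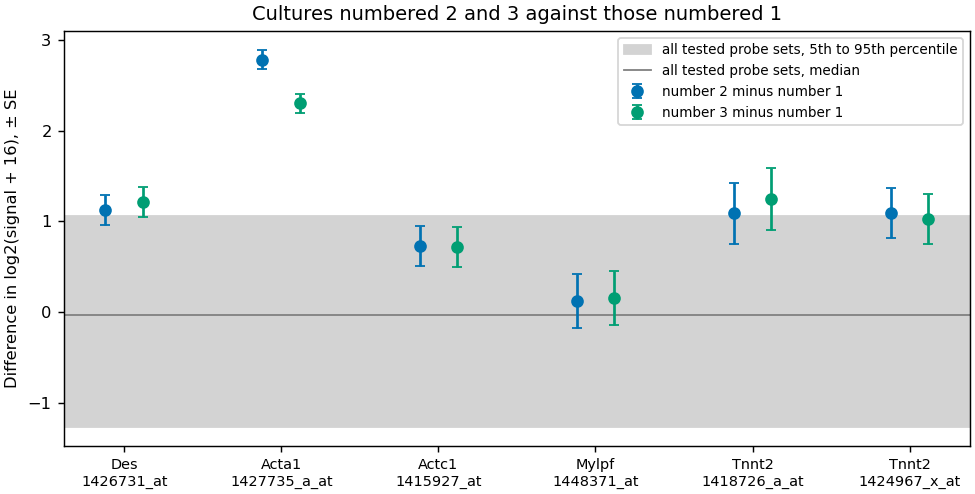
Difference in log2(signal + 16) of culture number 2 and number 3 from number 1, with limma's SE, for the 6 tested probe sets. The grey band spans the 5th to 95th percentile of the mean of both differences over all tested probe sets, -1.27 to 1.06, and the grey line is their median; Acta1 lies above the band at 2.78 and 2.30, and Mylpf lies close to the line.

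Over the 6 arrays the bright members followed one another, apart from Mylpf. The Pearson r of log2 signal was 0.97 between Acta1 and Des, 0.92 between Acta1 and Actc1 and 0.96 between Actc1 and Tnnt2, against 0.20 to 0.42 for Mylpf with the others. These arrays fall into number 1 and the rest, so r mostly records that split and is given as a description over 6 arrays. The genes most like Acta1 among 13033 were Rhoc, a small GTPase of the actin cytoskeleton (r = 0.998), Eftud2, a spliceosome GTPase (0.998), Cdip1 (0.998), Exosc10, a nuclease of the RNA exosome (0.997), and Lrrc8c, a subunit of volume-regulated anion channels (0.996). There were 1731 genes with r above 0.9. A high r does not mean a change of the same size. Rhoc ran from 4692 to 7084 over the arrays and Exosc10 from 506 to 1079, where Acta1 ran from 314 to 3871.

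Other muscle genes were set beside the members, in lists of regulators, sarcomere parts, and membrane or metabolic genes of muscle that hold none of the 10. Of 140 such genes 79 were tested, and 0 were called between genotypes with or without the replicate block. By sign alone 50 were lower and 29 higher in Zmpste24-/-, with a median log2 difference of -0.05. Within pairs 1, 2 and 3 the median was -0.05, -0.12 and 0.04, so its sign changed in pair 3. Of all 13038 tested genes 6644 were lower and 6394 higher, with a median of -0.0036. Cacnb1, the beta subunit of the calcium channel of skeletal muscle, was the single gene of the 79 with an unadjusted p under 0.05 (0.0433), as were 135 of all 13038 genes. It had 84.5, 102.4 and 79.4 in Zmpste24-/- and 56.0, 60.7 and 60.8 in wild type, which do not overlap, and its limma adjusted p was 0.9999.

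Among the 24 tested regulators, 15 were lower and 9 higher in Zmpste24-/-, with a median log2 difference of 0.03, -0.09 and 0.13 within pairs 1, 2 and 3. The smallest p values belonged to Smyd1, a muscle methyltransferase (log2 difference -0.40, SE 0.20), Mef2c, a partner of the myogenic factors (0.32, SE 0.23), Cdh15, the cadherin of myoblasts (-0.45, SE 0.34), and Vgll2, a cofactor of TEAD proteins (-0.24, SE 0.21). Of 26 tested sarcomere genes, 19 were lower and 7 higher. There Tcap, which caps titin at the Z disc, differed by -0.48 (SE 0.24), Mylk2, the myosin light chain kinase of skeletal muscle, by -0.89 (SE 0.47), the Z-disc protein gene Pdlim3 by -0.42 (SE 0.33) and slow troponin I, Tnni1, by 0.69 (SE 0.66). Of 29 membrane and metabolic genes 16 were lower and 13 higher, including Jsrp1, a protein of the calcium release junction (-0.48, SE 0.25), the muscle cytochrome oxidase subunit Cox6a2 (-0.37, SE 0.23) and the sarcoglycan Sgcd (-0.27, SE 0.19). None of these 11 genes passed the test. Apart from Mef2c (168.9), their mean signals over all arrays were low, from 51.6 (Pdlim3) to 102.9 (Smyd1). Mylk2 had 11.8, 24.3 and 74.0 in Zmpste24-/- and 47.8, 81.7 and 87.6 in wild type. The Mylk2 difference was -1.29 with 1 added before the logarithm and -0.47 with 64. Tnni1 had 9.40 in wild-type culture 1, and without that array its difference was -0.06.

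By culture number, 27 of the 79 genes passed the F test, where 47.0% of all tested genes did. Of the 27, 13 were lowest in number 1, 13 were highest in it and 1 was neither. Of all 13038 tested genes, 2775 (21.3%) were called with their lowest level in number 1 and 3309 with their highest. The median difference of numbers 2 and 3 from number 1 was 0.02 over the wider lists, against 1.17 over the 5 tested members and -0.05 over all tested genes. The difference between the members and the wider lists was not tested.

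Within the lists, Srf, the gene of serum response factor, was lower in number 1. It had 665, 1517 and 1317 in Zmpste24-/- cultures 1, 2 and 3 and 663, 1617 and 1478 in wild type, the same split as Acta1 with no gap between genotypes in number 1. Ankrd1, a stretch-responsive protein of the sarcomere, had 762, 2900 and 3005 in Zmpste24-/- and 699, 3437 and 3682 in wild type. Cavin4, a caveolar protein of muscle, had 26.5, 350.3 and 329.6 in Zmpste24-/- and 69.6, 343.7 and 255.9 in wild type. All 3 have both number 1 arrays far below the rest, in both genotypes.

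Also lower in number 1 were Megf10, a receptor of satellite cells (numbers 2 and 3 above number 1 by 1.96 and 2.01 log2 units), the hepatocyte growth factor receptor Met (0.90 and 0.94), the tropomyosin Tpm3 (0.59 and 0.47) and the muscle enolase Eno3 (0.64 and 0.54). Higher in number 1 were Eya1, a coactivator in muscle progenitors (-0.96 and -0.74), the small heat shock protein Cryab (-0.61 and -0.70), and the metabolic genes Ak1 (-0.78 and -0.82), Pfkm (-1.13 and -1.26) and Fabp3 (-0.29 and -0.58). These 12 genes all passed, with limma adjusted p of at most 0.00278.

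Markers of other cells moved with the culture number as well, and their part in the members' split was not tested. Genes of dividing cells (7 of 8 measured) summed to 5430, 23182 and 20892 in Zmpste24-/- cultures 1, 2 and 3 and to 5493, 20044 and 20860 in wild type, and all 7 were called, lowest in number 1. Macrophage markers summed to 13111, 1244 and 1353 in Zmpste24-/- and 6900, 1534 and 1952 in wild type, and the 9 that were tested, of 10, were all called, highest in number 1. Fibroblast markers, all 12 tested, summed to 130803, 109585 and 115262 in Zmpste24-/- and 133906, 123956 and 114180 in wild type. Number 1 has the highest sum in each genotype, and 6 of the 12 were called, 5 highest and 1 lowest in number 1.

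Of 4 further marker lists, only the endothelial one had sums that did not overlap between genotypes. The part of these markers in the members' values was not tested. Endothelial markers, 3 of 6 tested, summed to 814, 632 and 646 in Zmpste24-/- and 479, 553 and 599 in wild type, which do not overlap. Emcn alone was 614 in Zmpste24-/- culture 1. The log2 differences of the 3 tested genes were 0.50 for Emcn, 0.16 for Tek (the median) and 0.00035 for Kdr. Under the limit, Pecam1 had 4.62, 2.27 and 2.50 in Zmpste24-/- and 14.9, 18.1 and 3.99 in wild type. Cdh5 and Tie1, also under the limit, had overlapping groups, as did Pecam1. Neural markers summed to 2251, 2303 and 1784 in Zmpste24-/- and 930, 2021 and 1763 in wild type, where culture 1 is the low array. Of the 6 tested, 5 had the higher fitted value in Zmpste24-/-, with a median log2 difference of 0.52 over the arrays. Within pairs 1, 2 and 3 the neural median was 0.95, 0.38 and -0.08. Cartilage markers, 5 of 6 tested, summed to 1257, 1596 and 1579 in Zmpste24-/- and 1665, 1151 and 919 in wild type, and epithelial markers, 4 of 6 tested, to 669, 1012 and 1010 in Zmpste24-/- and 546, 1332 and 1487 in wild type. The neural, cartilage and epithelial sums all overlap between genotypes. In limma 0 genes of these 4 lists were called between genotypes, and 1 neural gene had an unadjusted p under 0.05. The F test of the culture number called 1 endothelial, 1 neural, 3 cartilage and 2 epithelial genes.

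Smooth muscle uses actin and myosin genes closely related to those of the members. All 9 of its markers were tested and summed to 39794, 58948 and 55888 in Zmpste24-/- and to 44518, 61406 and 56911 in wild type, with 5 called lowest in number 1 and 1 highest. Its 9 genes all had the lower fitted value in Zmpste24-/-, where 6644 of all 13038 tested genes did. Their median log2 difference was -0.14, with 0 called, and -0.15, -0.06 and -0.07 within pairs 1, 2 and 3. Not every pair was lower for every gene. Acta2, Tagln, Smtn and Myh11 were slightly higher in Zmpste24-/- in number 3, and Synpo2 and Myocd were higher in number 1. Actg2, smooth muscle gamma-actin, had 3842, 10289 and 9389 in Zmpste24-/- and 4602, 10806 and 9988 in wild type, the same number 1 split as Acta1. Whether probes for Acta1 bind transcripts of the closely related actin genes was not tested.

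Heart muscle markers summed to 1118, 1806 and 1589 in Zmpste24-/- and to 1715, 1896 and 2040 in wild type, and 8 of 13 passed the limit on dim probe sets. Those that passed were the sarcomere genes Myl3 and Mybpc3, the natriuretic peptide genes Nppa and Nppb and the transcription factor genes Nkx2-5, Gata4, Tbx5 and Hand2. Those that did not were the cardiac myosin genes Myl7, Myl2 and Myh6, cardiac troponin I (Tnni3) and the transcription factor gene Tbx20. The 10 members by their brightest probe sets summed to 825, 3645 and 2693 in Zmpste24-/- and to 1192, 4779 and 4052 in wild type. Number 1 is low in both genotypes, but the sums largely follow Acta1. It alone had 314, 2479 and 1691 in Zmpste24-/- and 605, 3871 and 2903 in wild type. The dim Myod1 and Myog had their highest Zmpste24-/- values in culture 1 (48.2 and 34.1) and their lowest wild-type values there (3.64 and 4.03).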

How the data were processed

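RNA of 3 Zmpste24-/- and 3 wild-type cultures was measured, 1 array each. Per the submitters' processing notes, the authors used GCOS, Affymetrix's array software, whose version is not given in the sources. It gave the deposited linear intensity of each probe set. Each array has a mean of 500 after trimming 2% of probe sets at each end; such scaling hides a change in total RNA. With 3 arrays per group, the number of arrays limits the precision. P-values measure the spread between these cultures.

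The 64 control probe sets of 45101 were left out. Names came from the platform annotation: 34945 probe sets have 1 symbol, 932 several and 9160 none listed; 34741 were matched by gene identifier to RefSeq (GRCm38.p6). The files name no genome build, so RefSeq coordinates are given only for RefSeq sequences.

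Values were analysed as log2(value + 16), leaving out the dimmest 40% by the mean over 6 arrays, with limma 3.58.1 (R 4.3.3), an intensity trend and Benjamini-Hochberg adjustment over 27022 probe sets. The method was tested on simulated data. The simulated genotype changes came without a culture-number effect, so that test does not cover the split of number 1 from the rest. The culture number was tested with genotype in the model (moderated F). Deviations from the group means correlated at 0.83, 0.59 and 0.57 between same-numbered cultures, over the limit of 0.1. Same-numbered cultures were therefore compared as pairs. Both arrays numbered 1 stood apart, which alone makes such deviations correlate, so the values cannot show that the numbers mark pairs. The main genotype fit used no block, and the block was an alternative. Members and lists were chosen with earlier results of these data known. All member probe sets are named; of each wider list, up to 4 genes with the smallest p for genotype and up to 4 for number; of each marker list the summed level, with Actg2 (among the 3 of its list with the highest signal) and, to account for the whole list, all heart markers. Marker genes were represented by their brightest probe set. Other alternatives were pseudocounts of 1 and 64, no filter or 60%, quantile normalization, median centring, no intensity trend, a threshold of 0.1, replicates 2 and 3 alone and each array left out. Figures were drawn with matplotlib 3.10.9.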

Additional observations from a re-analysis of the deposited data

How the results depend on the processing

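No member and no gene of the wider muscle lists was called between genotypes under any of the alternatives run, the replicate block included. Over all tested probe sets the count was 5 with the replicate block, 20 with replicates 2 and 3 alone, and 0 to 4 with 1 array left out, the 4 without wild-type replicate 1. The replicate block moved no member across the threshold; its smallest adjusted p among them was 0.0672, for Acta1. With replicates 2 and 3 alone the log2 difference (Zmpste24-/- minus wild type) changed sign to 0.040 for Actc1, -0.058 for Mylpf, and 0.29 and 0.30 for the probe sets of Tnnt2. With 1 array left out it ranged from -1.59 to 0.11 for Acta1, -0.69 to 0.087 for Des, -0.28 to 0.23 for Actc1, -0.034 to 0.21 for Mylpf, -0.50 to 0.48 and -0.40 to 0.49 for Tnnt2, and -0.058 to 1.13 for Tnni1. The 5 member probe sets called by culture number became 2 with no filter, 2 with no intensity trend, and 2 to 5 with 1 array left out. Of the adjusted p of single genes by number, 233 values kept their side of the threshold and 18 lost it. Of the dim members, which carry no test, the log2 difference of the dimmer Myod1 probe set was 1.71 with a pseudocount of 1 and 0.12 with 64, and that of Myh3 1.03 and 0.23. At low signal the size of a difference thus depends on the pseudocount. The causes of the other changes were not tested.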
